A study of Mus musculus with 20 samples.

Results

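Transcripts of olfactory receptor genes were followed in bulk RNA-seq of N2A (Neuro2A) cells, a mouse neuroblastoma line, with and without exposure to a pulsed near-infrared laser. Of 1407 genes whose GENCODE symbol starts with Olfr, 70 had at least 10 estimated reads in at least 10 of the 20 libraries, and these 70 are the genes described here. They were chosen on their reads, so their levels are given as a description without a test. In the annotation 68 of the 70 are protein-coding genes, and the others are Olfr1372-ps1, a transcribed pseudogene, and Olfr289-ps1, an unprocessed pseudogene. Of all 1407 genes, 452 had no read in any library. Just outside the threshold were Olfr1178, Olfr1322, Olfr341 and Olfr351, which reached 10 reads in 9 libraries, and just inside it were Olfr1028, Olfr1160, Olfr613, Olfr77 and Olfr95, which reached them in 10 libraries.

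All libraries came from the same unmodified line, grown in glass-bottom wells. Exposed wells were lysed 1 h after the laser had scanned the whole well, and unexposed wells were lysed at the same time. Batch 1 held 3 libraries each of NC-batch1, which was not exposed, and of I2-E2, I0-E4, I0-E2 and I0-E0, which were scanned by a single beam. I0-E0 had the lowest intensity and the shortest dwelling time, I0-E2 and I0-E4 had the same intensity with longer dwelling times, and I2-E2 had a higher intensity at the short dwelling time. Batch 2 held 2 libraries of unexposed NC-batch2 and 3 of I3-E3-SRS, at the highest intensity, in which the pulses of a second beam arrived together with those of the first. A library held 5473588 to 12698770 estimated reads. The study's methods describe wells that were exposed and lysed whole, with unexposed wells beside them, and the labels do not say whether the wells of a group came from separate cultures, so p-values reflect only how far these libraries differed from each other, and that spread may be technical. In bulk RNA, fewer cells with a transcript and less transcript per cell cannot be told apart.

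Olfactory receptors are G protein-coupled receptors that detect odorants on the cilia of olfactory sensory neurons. Each mature neuron expresses 1 allele of 1 receptor gene while the rest of the family is kept in silent chromatin, and the receptor signals through the G protein Golf (Gnal), adenylate cyclase 3 (Adcy3) and a cyclic nucleotide-gated channel (Cnga2, Cnga4, Cngb1). The coding sequence of a receptor gene usually lies in a single exon, with the untranslated parts in that exon and in short upstream exons. The genes stand in tandem clusters on most chromosomes, and receptors of class I are all in 1 large cluster on chromosome 7. Some family members are known outside the nose, such as Olfr78, a receptor for short-chain fatty acids in the carotid body and kidney, and Olfr2, a receptor for the aldehyde octanal.

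Many but not all of the coding parts of these genes carried a signature of the family. A stretch at the end of the third membrane span is among the most conserved of olfactory receptors, and it was searched as the letters ATGGCNTNNGANNGNTNNNTNGCN, on the coding strand and in frame. The letters were found in 38 of the 59 genes whose most-read transcript has a coding part (64.4%), in 62% of 1123 other Olfr genes with a coding transcript, and, at any position of a transcript, in 0.0282% of 21239 other coding genes. Genes with a coding part but without these letters included Olfr784, Olfr1388, Olfr975, Olfr11, Olfr986, Olfr635, Olfr624 and Olfr769. The stretches of 4 genes that have them and recur below are shown with the searched letters in capitals.
Olfr729: ATGGCcTatGAtaGaTatgTgGCc
Olfr344: ATGGCaTatGAcaGgTatgTgGCc
Olfr90: ATGGCcTttGAccGcTatgTgGCt
Olfr648: ATGGCaTttGAtcGcTatgTgGCc
The sequences are those of the GENCODE vM21 transcripts, and on GRCm38 they lie at chr14:50148498-50148521 on the minus strand, chr2:36568951-36568974 on the plus strand, and chr17:37085795-37085818 and chr7:104180026-104180049, both on the minus strand. Each lies within 1 exon and in the coding part, starting at codon 116 to 120.

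The reads were not assigned to transcripts that hold the coding sequence alone. For 55 of the 70 genes the annotation also has a coding transcript of 1 exon and at most 1200 bases, and these 55 transcripts held 0 of the 69610 reads of the 70 genes. The most-read transcript of a gene had a median length of 5217 bases (range 369 to 15582), and it held at least 90% of the reads of its gene in 66 of 70 genes. It had 1 exon in 5 genes, 2 exons in 39 and 3 or more in 26. In 11 genes it had no coding part, and in the other 59 the coding part made up a median of 17.6% of the transcript (6.01% to 48.9%). The untranslated part after the coding sequence was longer than that before it in 58 of those 59. The deposited values give no position of reads along a transcript, so how many fell in the coding part was not measured. The longest transcript was over 2 kb in 69 of the 70 genes, against 57.8% of the 1337 Olfr genes below the threshold. In the RefSeq promoter table for GRCm38.p6, which held 51 of the 70 genes, the start site lay a median of 2978 bases from the start of the most-read GENCODE transcript.

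The genes were spread over 25 of 68 clusters, taking a cluster as a run of annotated Olfr genes with gaps under 500 kb. The largest cluster, on chromosome 2 from 85330779 to 90403897, held 287 Olfr genes, 13 of the 70 and 12.3% of all Olfr reads. The class I cluster on chromosome 7, from 102476579 to 105369355, held 156 Olfr genes, 11 of the 70 and 11.7% of the reads. A cluster of 67 genes on chromosome 10, from 128989431 to 130214403, held only 4 of the 70 but 23.1% of the reads, most of them from Olfr784. In the 14 clusters with at least 2 of the 70, the share of Olfr genes that were among the 70 ran from 2.2% to 12%. Chromosomes 2 and 7 each held 19 of the 70, chromosome 9 held 8, and chromosomes 1, 4, 6, 12, 15 and X held none. The nearest gene outside the family with at least 1 CPM (library-size-scaled counts, by TMM) was a median of 229 kb away, within 50 kb for 11 genes and within 5 kb for 1, Olfr986, which lies 2182 bases from Zfp202 on the same strand.

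Per length, the level was low for nearly all of the 70. The mean over the 20 libraries was at least 5 TPM (a transcript level scaled by length and depth) in 5 genes, 1 to 5 TPM in 34 and under 1 TPM in 31, with a median of 1.12 TPM. Olfr784 (chr10:129384083-129390198, plus strand) was far above the others at 61.7 TPM and held 28.1% of the reads of the 70 genes. Next were Olfr289-ps1 at 16.6 TPM, whose most-read transcript has 369 bases, Olfr1388 at 6.49, Olfr1385 at 5.91 and Olfr975 at 5.07 TPM. Olfr11, Olfr1372-ps1, Olfr986, Olfr648, Olfr635, Olfr90 and Olfr624 completed the 12 highest, at 4.51 to 2.37 TPM. Olfr78 had 1.67 TPM and Olfr2 had 0.409 TPM, and these 2 are named for their known roles, after their values were seen.

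The levels of Olfr784 were 125, 131 and 146 CPM in NC-batch1, 130, 126 and 128 CPM in I0-E0, 131, 124 and 131 CPM in I0-E2, 129, 164 and 119 CPM in I0-E4, and 134, 158 and 120 CPM in I2-E2. In batch 2 they were 153 and 86.8 CPM in NC-batch2 and 100.3, 97.2 and 94.0 CPM in I3-E3-SRS. All groups of batch 1 overlapped, and 4 of the 5 libraries of batch 2 were below every library of batch 1.

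Part of the Olfr784 transcript is sequence that other genes also carry. Of the 31-base words of its transcripts, 52.1% occurred in no other gene, the lowest share among the 70, where the median was 85.2%. Slc38a6, which encodes an amino acid transporter, held 17.9% of the words and Noct, which encodes the phosphatase nocturnin, held 17.1%. Further genes shared words too, in part the same ones, such as Rab3gap1 with 516 of the 3089 words, against 527 for Noct. The most widely shared window of 30 bases, in the untranslated part after the coding sequence, occurred in 35 other genes. In Olfr784-202, which took all reads of the gene, stretches shared with Slc38a6 covered 32.1% of its 3119 bases and none of its coding bases, and those shared with Noct covered 30.4% and again no coding base. Windows of 30 bases from within the longest shared runs, of 181 bases for Slc38a6 and 161 bases for Noct, are shown as they read in the receptor transcript, with every base in capitals because every base is shared.
Olfr784 and Slc38a6: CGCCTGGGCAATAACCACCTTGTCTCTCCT
Olfr784 and Noct: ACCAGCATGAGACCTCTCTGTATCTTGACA
The windows lie at chr10:129389595-129389624 and chr10:129390007-129390036 on the plus strand, both in the untranslated part after the coding sequence. The Slc38a6 window has the same orientation in both genes, and the Noct window has the opposite orientation. Slc38a6 ranged from 3969 to 4533 CPM in batch 1 and Noct from 6436 to 7252 CPM. In batch 2, Slc38a6 had 5486 CPM in NC-batch2 replicate 1 and 2276 to 2587 CPM in the other 4 libraries, and Noct had 9698 CPM and 5024 to 5582 CPM. Olfr784, Slc38a6 and Noct were thus highest in the same library of batch 2, and the part of shared reads in the level of Olfr784 was not tested.

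**Figure D1:**
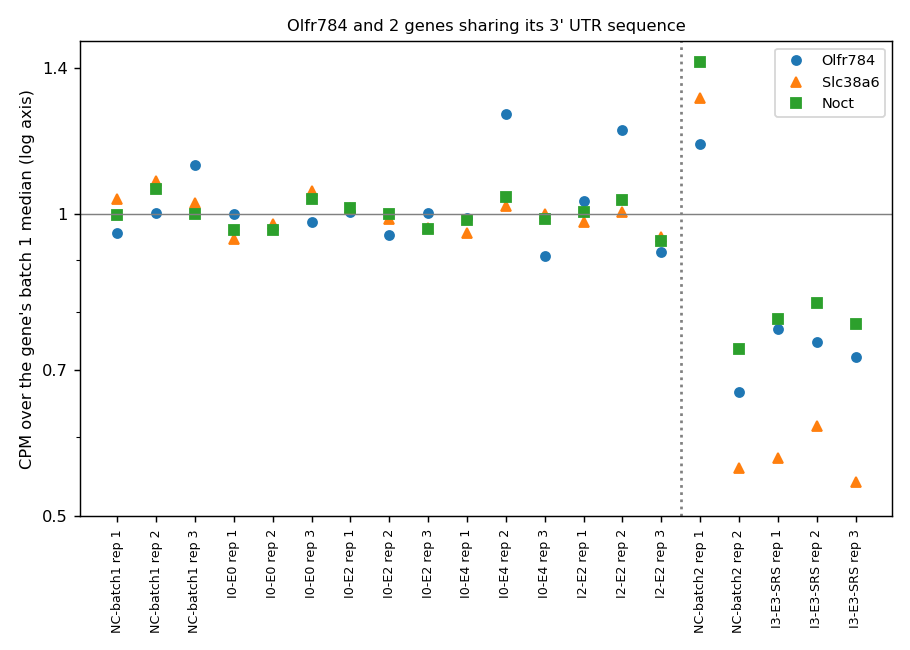
CPM of Olfr784, Slc38a6 and Noct in each of the 20 libraries, divided by the gene's median over the 15 batch 1 libraries, on a log axis, with batch 2 to the right of the dotted line. All 3 genes are highest in batch 2 in NC-batch2 replicate 1.

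The batches differed for some genes, although batch and group cannot be told apart and the rule, with 15 of its 20 libraries from batch 1, favours genes read in that batch. Olfr77 had 0.723 to 2.49 CPM in batch 1, and 175.5 and 36.6 CPM in NC-batch2 and 30.3, 34.4 and 37.0 CPM in I3-E3-SRS. All 5 libraries of batch 2 were thus above batch 1, and its share of words in no other gene was 94.9%, so some of its reads may be shared with other genes, which was not tested. Olfr1152 and Olfr127 also had all 5 libraries of batch 2 above all 15 of batch 1, at medians of 13.7 and 4.33 CPM in batch 2. These 3 genes are named after their values were seen. Another 10 genes lay below batch 1 in all 5 libraries, among them Olfr1372-ps1, with 17.7 to 32.8 CPM in batch 1 and 8.78 to 13.7 CPM in batch 2. Over all 12296 genes tested in batch 1, the percentages that did not overlap were 6.86% above and 5.9% below.

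Library I0-E0 replicate 3 stood apart from all others. Its 70 genes summed to 812.8 CPM, against 354.2 to 613.6 CPM (median 438.3) in the other 14 libraries of batch 1, which is 1.85 times their median at a like depth of 8059622 reads. The other I0-E0 libraries had 394.6 and 422.2 CPM, within the 354.2, 441.6 and 511.9 CPM of NC-batch1. Without Olfr784 the sum was 684.6 CPM against 229.3 to 455.4 CPM, 2.24 times the median. The number of Olfr genes with a read was 691 in this library and 396 to 496 in the others. The 1337 Olfr genes below the threshold, which the rule did not pick, summed to 415.1 CPM against 112.3 to 268.7 CPM, 2.40 times the median. The wider family thus shared the pattern of the 70.

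**Figure D2:**
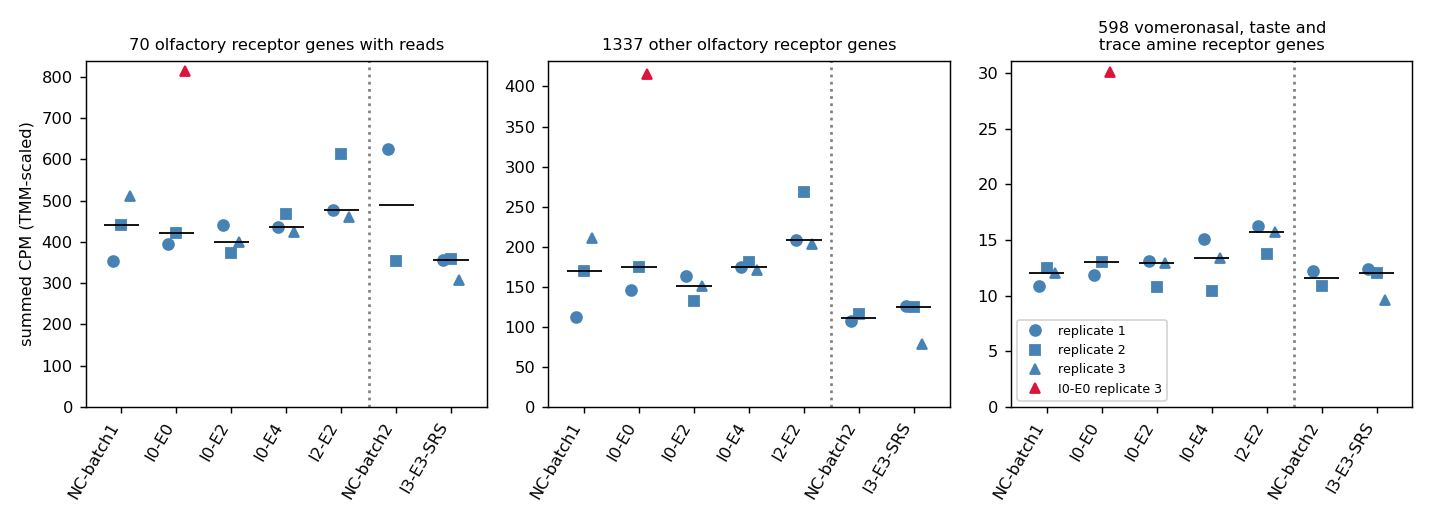
Summed CPM of the 70 olfactory receptor genes (left), of the 1337 other Olfr genes (middle) and of 598 vomeronasal, taste and trace amine receptor genes (right), 1 symbol per library by group, with the group median as a line and batch 2 to the right of the dotted line. I0-E0 replicate 3, in red, is the highest library in every panel, at 812.8, 415.1 and 30.1 CPM.

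The excess was wide but not even. I0-E0 replicate 3 was above all other 14 libraries of batch 1 for 48 of the 70 genes and below all of them for none, where 7.21% of all 12296 tested genes were above. The ratio to the median of the other 14 was over 2 in 41 genes, 1.5 to 2 in 14 and at most 1.5 in 15, with a median of 2.32, against 0.995 for all tested genes. The next highest library by this count was I2-E2 replicate 2, above all others for 12 of the 70, where 11.7% of all genes were above, and below all others for 1, where 13.8% of all genes were below. NC-batch1 replicate 1 was the lowest for 17 of the 70, where 5.86% of all genes were below, and the highest for none, where 6.44% were above.

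The 5 largest ratios were 9.36 for Olfr620, 8.35 for Olfr729, 4.06 for Olfr344, 3.80 for Olfr90 and 3.70 for Olfr769. Olfr620 had 2.53, 0.605 and 4.17 CPM in NC-batch1 and 0.631, 1.84 and 18.8 CPM in I0-E0. Olfr729 had 3.25, 0.605 and 5.25 CPM in NC-batch1 and 0.379, 2.23 and 21.1 CPM in I0-E0. In both genes the 2 other I0-E0 libraries lay within or below the unexposed ones. Olfr620 is on chromosome 7 and Olfr729 on chromosome 14, they shared 4 of their 31-base words, and 94.8% and 99.1% of their words were in no other gene. Both were highest in batch 2 in NC-batch2 replicate 1, at 10.9 and 14.8 CPM.

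Olfr344 had 2.17, 3.75 and 5.56 CPM in NC-batch1 and 4.55, 5.39 and 19.5 CPM in I0-E0. Olfr90 had 3.98, 3.63 and 3.71 CPM in NC-batch1 and 3.54, 3.81 and 14.8 CPM in I0-E0. Olfr769 had 3.49, 3.03 and 4.48 CPM in NC-batch1 and 4.04, 5.26 and 17.2 CPM in I0-E0. In all 3 genes only replicate 3 of I0-E0 was far outside the unexposed range. Olfr1385 had 39.8 CPM against a median of 11.6 CPM in the other 14, and 19.4% of its words occur in its neighbour Olfr1386, so reads of these 2 genes may be split between them. Olfr635 had 40.3 CPM against a median of 12.6 CPM.

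Several of the genes with the highest TPM did not share the excess. Olfr784 had 0.981 times the median, Olfr1388 had 0.994 times, Olfr289-ps1 had 1.01 times, Olfr11 had 1.09 times, Olfr975 had 1.11 times and Olfr1372-ps1 had 1.15 times. Of the 7 genes with the highest TPM only Olfr1385 was above the other 14 libraries. Olfr289-ps1, high on TPM with a transcript of 369 bases, had 14 reads in I0-E0 replicate 3. On CPM, Olfr635, Olfr1385 and Olfr1388 had like medians in the other 14, at 12.6, 11.6 and 12.4 CPM. Their ratios were 3.21, 3.42 and 0.994. The 15 genes with a ratio of at most 1.5 had a median of 1.67 TPM and a median transcript of 3992 bases, and the other 55 had 1.02 TPM and 5363 bases. The share of words in no other gene was alike, at medians of 85.6% and 84.8%. All but 4 of the 25 clusters had a ratio over 1.5, and the 3 with ratios under 1.2 held 1 of the 70 genes each.

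**Figure D3:**
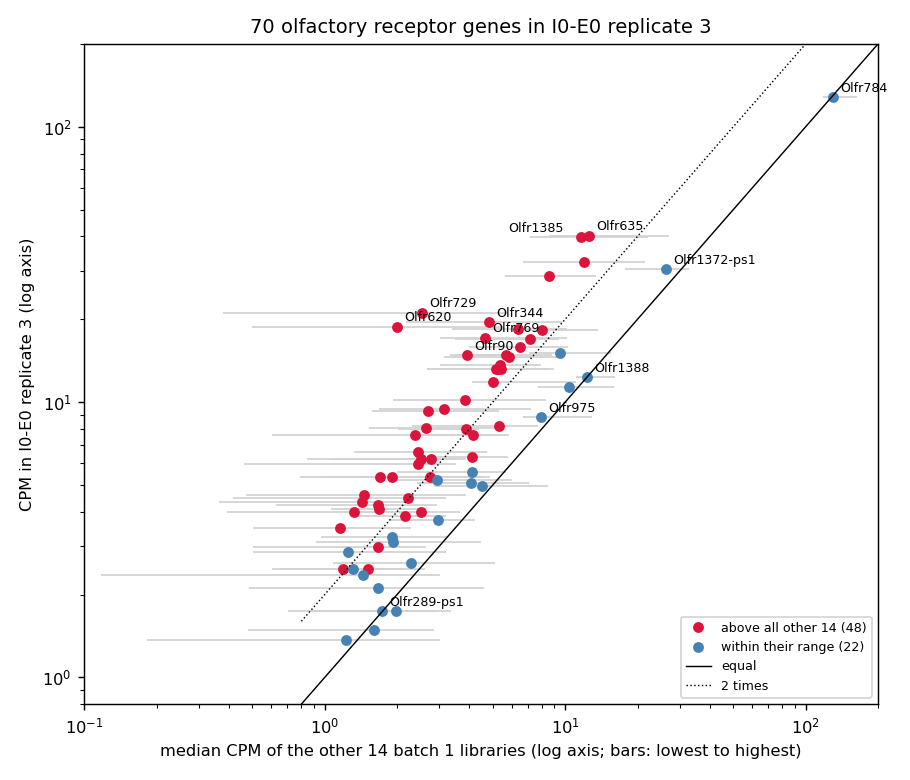
CPM of each of the 70 genes in I0-E0 replicate 3 against its median in the other 14 batch 1 libraries, on log axes, with grey bars from their lowest to their highest value. The 48 genes in red are above all other 14 libraries, and Olfr784, Olfr1388, Olfr289-ps1 and Olfr975 lie near the line of equal levels.

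**Figure D4:**
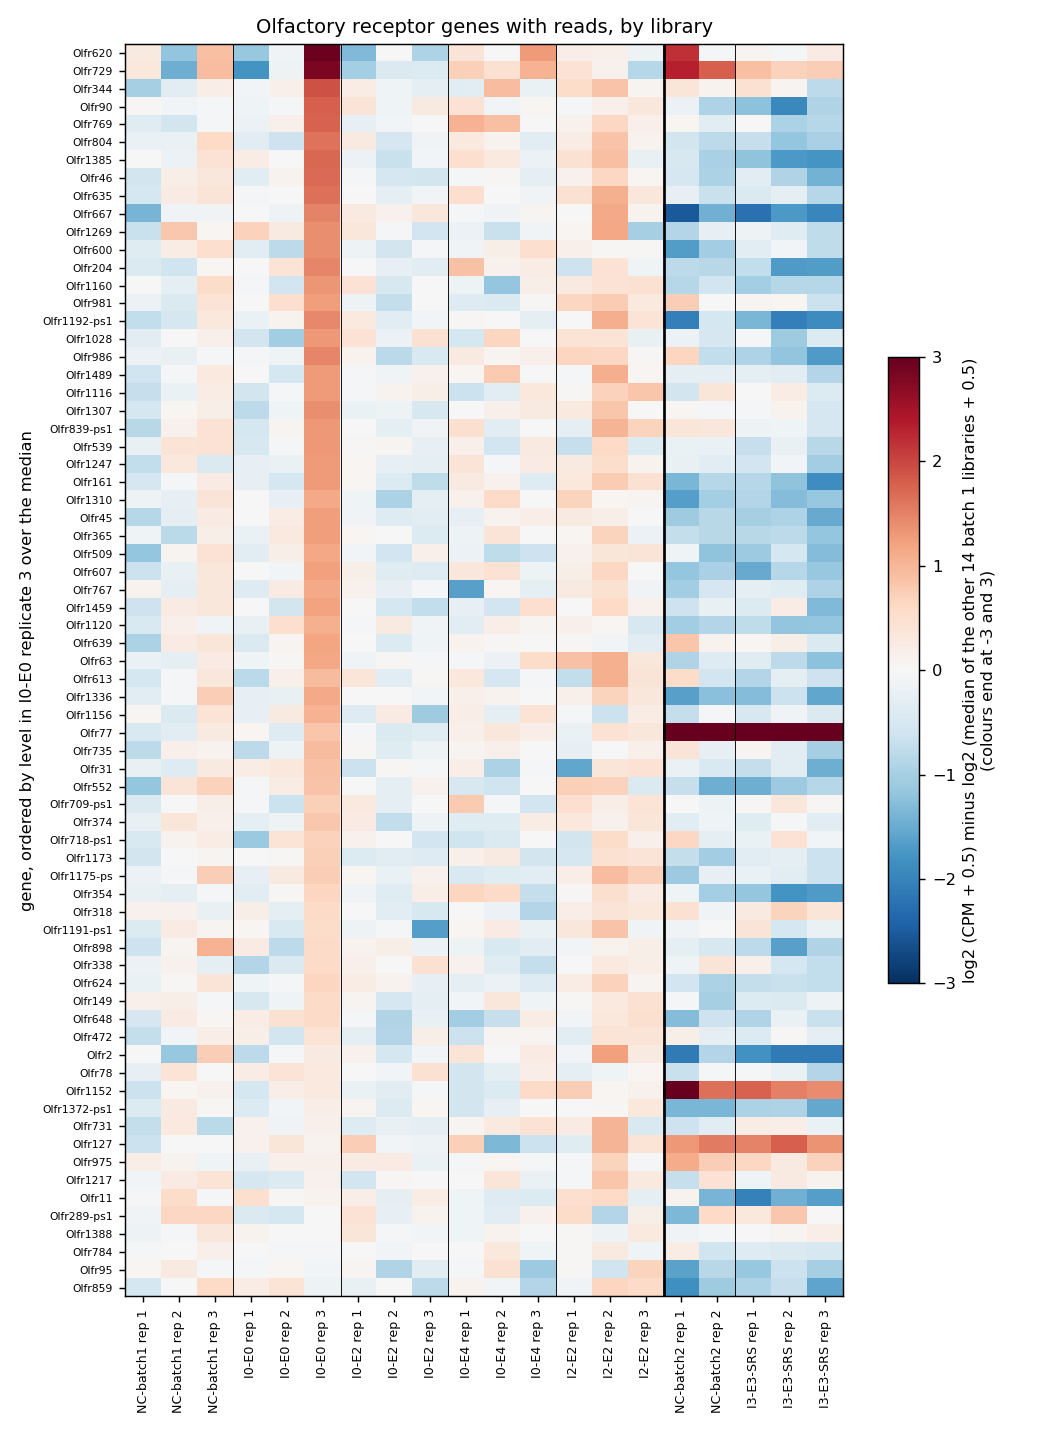
Level of each of the 70 genes (rows, by their ratio in I0-E0 replicate 3) in the 20 libraries (columns), as log2 of CPM plus 0.5 relative to the median of the other 14 batch 1 libraries, with colours ending at 3 in either direction. The column of I0-E0 replicate 3 is red over most rows, and Olfr77, Olfr1152 and Olfr127 are red in all 5 libraries of batch 2.

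The same library was also high for other genes that these cells barely read. The 598 vomeronasal, taste and trace amine receptor genes, which are chemosensory receptors of other families, summed to 30.1 CPM against 10.4 to 16.3 CPM in the other 14, and 96 of them had a read against 20 to 36. The keratin-associated protein genes of hair summed to 1.74 CPM against 0 to 0.588 CPM. The beta-defensin genes, at 10.9 CPM against 8.57 to 14.1 CPM, were within the range, although 13 of them had a read against 2 to 6. Outside the Olfr family, 12830 genes without a read in batch 2 summed to 552 CPM against 108.3 to 206.1 CPM, and over all genes 19940 had a read against 15979 to 17173. The part of this wider pattern in the excess of the olfactory receptor genes was not tested.

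Per kilobase of the longest transcript, the level in I0-E0 replicate 3 minus the median of the other 14 had a mean of 0.974 CPM in the 70 genes, on a mean base level of 1.47 CPM in the other 14. The medians over the 70 genes were 0.6285 CPM added on a base of 0.6017 CPM. In the Olfr genes below the threshold the added level had a mean of 0.0608 CPM on a base of 0.0298 CPM. In the other chemosensory receptors it was 0.02 CPM on 0.0121 CPM, and in the genes without a read in batch 2 it was 0.0375 CPM on 0.00217 CPM. Among these 4 groups the mean added level was largest in the 70 genes, but relative to the mean base level it was smallest in them. The 70 were chosen for having reads and the other groups for having few or none, which bears on both orders, and these are values of 1 library.

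Exposure was then compared with the unexposed libraries of the same batch by edgeR's quasi-likelihood test over all genes, 12296 in batch 1 and 12031 in batch 2. All 70 genes could be tested in batch 1, and 58 in batch 2. No Olfr gene was called at an adjusted p under 0.05 in any of the 5 comparisons, and percent called over all genes was 0 in each. Without the filter on low counts 12 of the 70 were called higher in I0-E0, where 0.336% of all genes were and 0.435% were called in either direction. In the same way 1 was called in I0-E4, 3 in I2-E2 and 2 in I3-E3-SRS, where 0.68%, 0.633% and 0.96% of all genes were. DESeq2 called Olfr729 in I3-E3-SRS, where it called 0.125% of all genes, and none of the 70 in the other 4.

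In I0-E0 the higher levels rested on replicate 3. The log2 fold change was above 0 in 59 of the 70 genes, with a median of 0.47, against 51.4% of all genes and a median of 0.0035. At an unadjusted p under 0.05 by edgeR were 10 of the 70, all higher, where 1.84% of all genes were higher and 1.52% lower. Olfr127 alone had all I0-E0 libraries above all NC-batch1 libraries, as 4.49% of all genes did, and none had all of them below, as 4.45% did. Without replicate 3 the median was -0.11, 26 of the 70 were above 0, and 2 were at an unadjusted p under 0.05, both lower, where 1.34% of all genes were. The smallest p was that of Olfr204, with 1.81, 1.57 and 2.78 CPM in NC-batch1 and 2.65, 3.68 and 8.08 CPM in I0-E0, a log2 fold change of 1.25 ± 0.42 (SE; edgeR, adjusted p = 0.9995). Next was Olfr769, at 1.28 ± 0.43 (edgeR, adjusted p = 0.9995). For both, the highest library was replicate 3 and the groups overlapped.

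In the longer exposures at the same intensity the genes leaned slightly downwards in I0-E2 and stayed near the unexposed level in I0-E4. For I0-E2 the median log2 fold change was -0.13 with 21 of 70 above 0, where 50.2% of all genes were. For I0-E4 it was 0.06 with 40 of 70 above 0, where 50.7% of all genes were. These medians changed sign without single libraries, to 0.0784 in I0-E2 without NC-batch1 replicate 3, and to -0.16 and -0.0032 in I0-E4 without NC-batch1 replicate 1 and I0-E4 replicate 1. At an unadjusted p under 0.05 by edgeR was none of the 70 in I0-E2, where 1.51% of all genes were higher and 1.85% lower. In I0-E4 these were 1 higher and 1 lower, where 4.16% of all genes were higher and 3.76% lower. In I0-E4, 4 genes did not overlap upwards and 2 downwards, where 6.61% and 6.16% of all genes did not. Olfr667, first in I0-E2, had 0.602, 2.18 and 2.16 CPM in NC-batch1 and 2.98, 2.63 and 3.17 CPM in I0-E2, a log2 fold change of 0.85 ± 0.53 (edgeR, adjusted p = 0.9932). It was the only one of the 70 without overlap in I0-E2, where 5.86% of all genes were above and 5.34% below. Olfr1217 was second, at -0.38 ± 0.29 (edgeR, adjusted p = 0.9932). In I0-E4, Olfr769 had 10.2, 9.11 and 4.70 CPM, all above NC-batch1, a log2 fold change of 1.11 ± 0.45 (edgeR, adjusted p = 0.6122). Olfr11 had 10.1, 15.5 and 10.2 CPM in NC-batch1 and 9.54, 7.84 and 7.71 CPM in I0-E4, a log2 fold change of -0.52 ± 0.24 (edgeR, adjusted p = 0.6203).

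In I2-E2 the genes leaned upwards without a call. The 70 genes summed to 476.4, 613.6 and 459.0 CPM against 354.2, 441.6 and 511.9 CPM in NC-batch1, so the groups overlapped. The log2 fold change was above 0 in 61 of 70 genes with a median of 0.35, where 51.2% of all genes were above 0. All I2-E2 libraries were above all of NC-batch1 in 8 of 70, where 6.07% of all genes were. None had all below, where 6.08% did. At an unadjusted p under 0.05 by edgeR was 1 gene, higher, where 3.84% of all genes were higher and 3.35% lower, and this became 10 of 70, all higher, when I0-E0 replicate 3 was left out of the fit, where 3.7% of all genes were. The lean depended on single libraries, with medians of 0.19 without I2-E2 replicate 2 and 0.20 without NC-batch1 replicate 1, and 53 and 51 of 70 above 0. The other chemosensory receptors were also higher in all 3 I2-E2 libraries, at 16.3, 13.8 and 15.7 CPM against 10.8, 12.5 and 12.1 CPM, and their part was not tested. Olfr63 had 4.34, 4.12 and 6.02 CPM in NC-batch1 and 9.73, 11.1 and 6.50 CPM in I2-E2, a log2 fold change of 0.92 ± 0.33 (edgeR, adjusted p = 0.6073). Olfr667 followed at 1.10 ± 0.53 (edgeR, adjusted p = 0.6929), with its highest value, 5.83 CPM, in replicate 2.

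**Figure D5:**
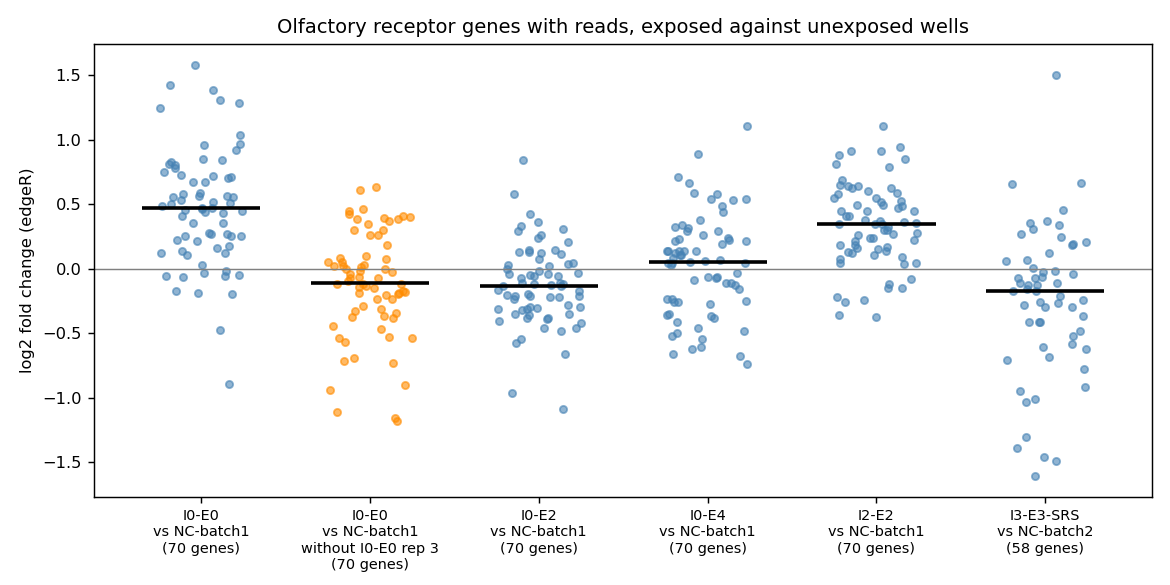
Log2 fold change (edgeR) of each of the 70 genes, or of the 58 tested in batch 2, in each exposure against its unexposed libraries, 1 point per gene with the median as a line, and I0-E0 also without replicate 3 in orange. The median falls from 0.47 to -0.11 when replicate 3 is left out, and it is 0.35 in I2-E2.

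In I3-E3-SRS, 7 of the 58 tested genes were at an unadjusted p under 0.05 by edgeR, all lower, where 2.49% of all genes were lower and 1.53% higher. The log2 fold change was above 0 in 17 of 58, with a median of -0.17, where 48.6% of all genes were above 0. Without I3-E3-SRS replicate 3 this was lost, with 28 of 57 above 0 and a median of -0.0134. At an unadjusted p under 0.05 by edgeR were then 3 of 57, 2 of them higher. Of all 11965 genes, 209 were higher and 233 lower at that p. The first was Olfr729, with 14.8 and 9.99 CPM in NC-batch2 and 5.13, 4.39 and 4.59 CPM in I3-E3-SRS, a log2 fold change of -1.39 ± 0.22 (edgeR, adjusted p = 0.6191). It was 1 of 8 genes with all exposed libraries below the unexposed ones, where 9.06% of all genes were, and 5 had all above, where 9.27% were. Olfr986 had 10.1 and 3.63 CPM in NC-batch2 and 3.08, 2.52 and 1.61 CPM in I3-E3-SRS, a log2 fold change of -1.49 ± 0.48 (edgeR, adjusted p = 1.0). The unexposed libraries of batch 2 differed from each other, with 624.8 and 353.5 CPM over the 70 genes against 355.4, 359.2 and 306.9 CPM in I3-E3-SRS. Much of that gap lay in Olfr77, Olfr784 and Olfr1152, which had 175.5, 153 and 39.8 CPM in replicate 1 and 36.6, 86.8 and 13.7 CPM in replicate 2, while the Olfr genes below the threshold summed to 106.9 and 115.6 CPM. On TPM the order turned, with 89.1 and 147.6 TPM over the 70 genes in NC-batch2 against 143.8, 153.5 and 119.2 TPM in I3-E3-SRS. Without NC-batch2 replicate 2, leaving replicate 1 as the lone control on the assumption that it varies like the exposed group, 7 genes were called, all lower, where 5.27% of all genes were called and 4.35% called lower, namely Olfr11, Olfr1152, Olfr620, Olfr729, Olfr77, Olfr784 and Olfr986. Without NC-batch2 replicate 1, which leaves replicate 2 as the lone control, the median log2 fold change was -0.16. Then 21 of 62 were above 0, where 6190 of all 12423 genes were.

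The other parts of the olfactory pathway were read unevenly. Of 16 genes of olfactory signal transduction, 10 could be tested in batch 1. Gnb1, a widely used G protein subunit, had 1041 CPM over the 20 libraries, Slc12a2, a chloride importer, 86.9 CPM, Adcy3 14.3 CPM and Gnal 2.79 CPM, while Cnga2 had no read and Cnga4 and the chloride channel Ano2 were under 0.05 CPM. Of 12 receptor trafficking genes 6 could be tested, led by the chaperones Hsp90aa1 and Hspa8 at 2336 and 1750 CPM. Rtp1 and Rtp2, which carry receptors to the surface of sensory neurons, had 5 reads and 1 read over all libraries. Of 21 regulators of receptor choice 18 could be tested, among them Cbx5 at 471 CPM, Kdm1a, the histone demethylase that acts on the chosen gene, at 278 CPM, Ldb1 at 111 CPM and Lhx2 at 1.07 CPM, while Ebf2 and Emx2 were under 0.05 CPM.

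None of these genes was called in the 5 comparisons. At an unadjusted p under 0.05 were none in I0-E0 and I0-E2. In I0-E4 these were 1 higher and 1 lower of the 10 tested signal transduction genes and 1 lower of the 6 tested trafficking genes. Of all genes, 4.16% were higher and 3.76% lower there. In I2-E2 these were 1 higher and 1 lower of the 6 trafficking genes and 1 higher of the 18 tested regulators. Of all genes, 3.84% were higher and 3.35% lower there. In I3-E3-SRS 1 of the trafficking genes was higher, where 1.53% of all genes were higher and 2.49% lower. In I0-E0 replicate 3 their summed levels, which the few abundant genes carry, were within the range of batch 1, at 1233 CPM for signal transduction (1171 to 1269 CPM in batch 1), 4344 CPM for trafficking (4208 to 4911 CPM) and 1944 CPM for the regulators (1863 to 1999 CPM). Single genes were above all other 14 libraries there, 2 of 16 for signal transduction (Adcy3 and Ano2) and 3 of 12 for trafficking (Rtp1, Reep1 and Rtp3). For the regulators there were 3 of 21 (Cbx5, Adcy3 and Ebf1). Below all other 14 was 1 of the 21 regulators, Zfp143 at 18.9 CPM, where 5.38% of all tested genes were below. None of the signal transduction and trafficking genes was below. Of all tested genes, 7.21% were above all other 14. However, Ano2, Rtp1, Reep1, Rtp3 and Ebf1 had too few reads to be tested, so this share is no like background for them. Over all 20 libraries Ano2 had 7 reads and Rtp1 had 5. Adcy3 had 17.8 CPM against 13.8 ± 0.456 CPM (SD, n = 3) in NC-batch1, and Rtp3 had 2.86 CPM against a mean of 0.725 CPM over the 20 libraries. These genes are named after their values were seen.

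The labelled cell type was checked against markers. Of 14 neuronal markers of N2A cells 11 could be tested, with a sum of 2539 to 2897 CPM in batch 1, led by Tubb3 at 805 CPM and Uchl1 at 742 CPM. Of 12 markers of mature olfactory sensory neurons 4 could be tested, with a sum of 27.6 to 38.0 CPM in batch 1 and 37.2 CPM in I0-E0 replicate 3, and Cnga2, Cnga4, Rtp1, Rtp2, Gfy and Ano2 were under 0.05 CPM. Omp, the classical marker of these neurons, had 3.28 CPM. Fibroblast markers summed to 5.14 to 10.2 CPM in batch 1, with 9.57 CPM in I0-E0 replicate 3. Germ cell markers, measured because sperm also express olfactory receptors, summed to 7.42 to 14.6 CPM, with 10.6 CPM in that library, and nearly all of it was Dazl. None of the 7 macrophage markers could be tested in batch 1. They summed to 0.364 to 3.85 CPM there and to 3.14 to 7.14 CPM in batch 2. Their batch 1 sum was highest in I0-E0 replicate 3, where 4 of the 7 were above all other 14 libraries and 0 were below. These 4 were Ptprc at 1.24 CPM, Csf1r at 1.12 CPM, Itgam at 0.622 CPM and Adgre1 at 0.249 CPM. In that library Cd68 had 0.622 CPM, against 0.935 ± 0.268 CPM (SD, n = 3) in NC-batch1, and Aif1 had 0 CPM. Lyz2 had no read in any library. The part of such cells in the excess was not tested.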

How the data were processed

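The authors quantified reads with Salmon, named without a version in the submitters' processing notes, and deposited an estimated count and a TPM value per transcript. For the transcript release and options, nothing is stated in the notes or methods. Of 107368 transcripts, 98.6% were found in GENCODE vM21 (GRCm38), which gave gene symbols and 1-based coordinates, and the rest held 0.664% to 0.748% of reads. Estimated counts were summed per gene (34083 genes) and rounded. Levels are CPM on TMM library sizes over all 20 libraries, and TPM where genes are compared. The CPM of a gene with few reads carries the counting error of those reads. Each exposure was compared with the unexposed libraries of its batch by edgeR 4.0.16 (filterByExpr at a minimum count of 10, TMM, glmQLFit, glmQLFTest), with batches fitted separately and p-values adjusted by Benjamini-Hochberg over all genes tested. All tests are two-sided. The scripts were tested on simulated data. Alternatives used DESeq2 1.42.0, limma 3.58.1, R 4.3.3 and Python 3.11.15.

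Words are the 31-base sequences of a gene's transcripts on either strand. Genes with values were named by a fixed rule: the 12 with the highest mean TPM, the 2 with the smallest p in each comparison, and the 5 with the largest ratio in I0-E0 replicate 3 at a difference of at least 1 CPM. Other names are examples or said to be chosen after their values were seen. The genes and lists were chosen with earlier results of these data known. Replicate numbers were not found to pair the libraries of batch 1, and batch 2, with 2 shared numbers, was not checked.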

Additional observations from a re-analysis of the deposited data

How the results depend on the processing

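The number of the 70 genes that were called stayed at 0 in 93 of 99 alternatives over the 5 comparisons. Without the filter on low counts 12 genes were called in I0-E0, 1 in I0-E4, 3 in I2-E2 and 2 in I3-E3-SRS, and DESeq2 called 1 in I3-E3-SRS. Leaving out 1 library left 0 of the 70 called in the 4 comparisons of batch 1, with at most 2 called over all genes. In I3-E3-SRS the number moved from 0 only without NC-batch2 replicate 2, in a fit with 1 control library. The median log2 fold change of the genes changed sign in 4 of 63 alternatives, all of which left out 1 library: it ranged from -0.11 to 0.71 in I0-E0, with -0.11 without replicate 3, from -0.32 to 0.0784 in I0-E2, with 0.0784 without NC-batch1 replicate 3, and from -0.16 to 0.26 in I0-E4, with -0.16 without NC-batch1 replicate 1 and -0.0032 without I0-E4 replicate 1. A replicate block left 0 of the 70 called in all 5 comparisons, and same-numbered libraries of batch 1 correlated at -0.211 to 0.185, with 6 of 15 libraries closest to their own number, so these share only a number. Batch 2 was not checked for pairing, and there the block called 6 genes of all tested and moved the median from -0.17 to -0.0293 and the genes above 0 from 17 to 28 of 58. With at least 5 reads the rule gives 148 genes, with at least 20 reads 39, and with 10 reads in all 20 libraries 29. The excess of I0-E0 replicate 3 over the median, 1.85 times, was 1.71 times on TPM, 2.24 times without Olfr784, 3.14 times in the 7 genes with at least 95% of words in no other gene, 1.90 times in these without Olfr729 (an alternative chosen after seeing the data), and 2.02 times over all Olfr genes. The cause of these changes was not tested. Most of the genes had few reads per library, which limits the differences that could be detected. The comparison of the 2 groups alone is the same fit in batch 2 and has no value of its own there.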
